A study of Mus musculus with 15 samples.

Results

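Podocytes are the epithelial cells that wrap the capillaries of the kidney glomerulus, and the junction between their foot processes, the slit diaphragm, is the last layer of the filtration barrier. Transcripts of 8 podocyte genes were followed in whole kidneys: Nphs1, Podxl, Wt1, Synpo, Ptpro, Cdkn1c, Magi2 and Plce1. They were taken by symbol, as entries of the expression table annotated with exactly 1 gene symbol. Of the 8, 7 were measured, each by 1 entry, among 22180 genes with 1 symbol. Magi2, a scaffold protein beneath the slit diaphragm, is not named in the array annotation used here and has no value below.

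All mice carried the Rosa26-LSL-PRCC-TFE3 knock-in allele, in which a stop cassette that Cre recombinase removes precedes the fusion of PRCC with the transcription factor TFE3 found in translocation renal cell carcinoma. Cre+ mice also carried KSP-Cre and Cre- mice did not, so the Cre- controls hold the silent allele, and no group carried KSP-Cre alone. Kidneys of 15 mice were profiled, each on its own Affymetrix Mouse Gene 2.0 ST array. At 4 months of age there were 4 Cre- and 4 Cre+ animals. The 7-month groups were 3 Cre- and 4 Cre+ animals. The KSP promoter is that of Cdh16, a cadherin of tubule and collecting duct epithelium, and it is known for driving Cre in tubules rather than in podocytes. The labels name whole kidney only, so glomeruli were not separated, and in such bulk samples fewer podocytes and less RNA per podocyte cannot be told apart.

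As background, nephrin, encoded by Nphs1, spans the slit between neighbouring foot processes and binds adaptor proteins that connect it to the actin cytoskeleton. Podocalyxin, encoded by Podxl, is a sialomucin whose negative charge keeps foot processes apart, and synaptopodin, encoded by Synpo, binds actin within them. Wt1 is a zinc finger transcription factor that mature podocytes keep, Ptpro is a receptor tyrosine phosphatase of the foot process membrane, Cdkn1c is a cyclin-dependent kinase inhibitor of podocytes that have left the cell cycle, and Plce1 is a phospholipase C whose loss causes nephrotic syndrome in people. Several are also made elsewhere in the kidney: Podxl in vascular endothelium, Wt1 in parietal epithelial cells, Plce1 in many cell types.

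Deposited values are log2 RMA values, a scale on which a difference of 1 is a 2-fold difference of hybridisation signal. They ranged from 1.04 to 13.12, and the median over genes lay between 4.90 and 5.13 on the 15 arrays. Gpnmb, a transmembrane glycoprotein and known target of TFE3, stood 6.30 log2 units higher with Cre at 4 months and 7.74 higher at 7 months (limma adjusted p = 1.48e-13 and 3.22e-14), with no overlap of groups. Cdh16 was at -0.17 at 4 months (SE 0.12, adjusted p = 0.548) and fell by 0.43 at 7 months (SE 0.13, adjusted p = 0.0256). The array probes of Tfe3 and Prcc differed by -0.25 to 0.22 between Cre+ and Cre- kidneys and did not pass the test. Proximal tubule markers, which define most of the kidney cortex, had a mean level in Cre- kidneys of 11.27 to 11.38 at 4 months. Precision is limited by the number of arrays.

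Sequence upstream of the start is shown for 3 members. At 7 months Nphs1 fell in Cre+ kidneys and Plce1 rose, while Ptpro, at -0.45, did not pass the test (limma adjusted p = 0.0584). RefSeq's promoter table of GRCm38.p6 held these 3 of the 7 measured members, and the 250 bases before the listed start are printed on the gene's own strand, with the longest run of purines (A or G) in capitals. All 3 lie on the + strand, Nphs1 at chr7:30459808-30460057, Ptpro at chr6:137252049-137252298 and Plce1 at chr19:38523947-38524196.
Nphs1: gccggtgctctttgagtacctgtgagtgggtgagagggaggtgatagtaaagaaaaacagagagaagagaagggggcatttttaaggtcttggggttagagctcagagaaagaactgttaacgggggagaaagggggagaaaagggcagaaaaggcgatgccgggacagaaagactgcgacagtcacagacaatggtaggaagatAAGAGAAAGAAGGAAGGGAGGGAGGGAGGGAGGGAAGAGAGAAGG
Ptpro: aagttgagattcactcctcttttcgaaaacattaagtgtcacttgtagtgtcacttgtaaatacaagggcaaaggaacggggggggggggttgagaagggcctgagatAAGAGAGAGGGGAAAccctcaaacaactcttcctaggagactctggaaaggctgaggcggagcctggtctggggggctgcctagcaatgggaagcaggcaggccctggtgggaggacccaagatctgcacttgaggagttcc
Plce1: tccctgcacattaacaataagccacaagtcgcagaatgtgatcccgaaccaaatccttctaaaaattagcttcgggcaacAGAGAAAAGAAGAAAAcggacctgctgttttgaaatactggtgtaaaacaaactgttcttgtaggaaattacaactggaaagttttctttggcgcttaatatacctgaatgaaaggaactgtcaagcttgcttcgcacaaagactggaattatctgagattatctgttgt
The listed start of Ptpro is the start of its annotated gene, whereas those of Nphs1 and Plce1 lie 1851 and 43163 bases inside theirs, so the windows stand for 1 of several starts.

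The Nphs1 window ended in a run of 45 purines and was 77.2% purine, a share reached by 0.0731% of 32817 windows of that length (median 50%). The Ptpro window was 60.8% purine with a longest run of 15 bases, and the Plce1 window 54% with a run of 16. GC content was 50.8%, 53.6% and 38.8% for Nphs1, Ptpro and Plce1, against a median of 52.4%. The letters CACGTG, the E-box that TFE3 and its relatives bind, were searched on both strands and are not in these windows, while 6.02% of all windows hold them. The same was so of CATGTG (12.3% of all windows), the WT1 motif GCGTGGGAG (0.405%), TAATTA, read by LMX1B (4.85%), and the forkhead motif GTAAACA (3.16%).

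At 7 months, 4 of the 7 measured podocyte genes fell in Cre+ kidneys (Nphs1, Podxl, Wt1 and Cdkn1c), 1 rose (Plce1), and 2 did not pass the test (Ptpro and Synpo). Over all 22180 genes 22.5% were called at this age, 10.8% lower and 11.7% higher, at a Benjamini-Hochberg adjusted p under 0.05 from a limma fit of the 4 group means. The median log2 change of the 7 genes was -0.47, beside -0.04 over all genes tested. Groups did not overlap for 5 of the 7 genes, a state met by 29.2% of all genes. On the lower side these were Nphs1, Podxl, Wt1 and Ptpro (15.2% of all genes), and on the higher side Plce1.

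Nphs1 was at 6.71, 6.22 and 6.37 in the 3 Cre- kidneys at 7 months and at 5.60, 5.65, 5.81 and 5.62 in the 4 Cre+ kidneys. Every Cre+ value lay below every Cre- value, and the Cre+ kidneys lay close together (5.67 ± 0.10, SD, n = 4, against 6.43 ± 0.25, n = 3). The fall was 0.76 on the log2 scale (SE 0.15, adjusted p = 0.00125), or 1.7-fold, and 3.97% of all genes changed by a lower value. Of 18 alternatives run at this age, it was called under each that kept more than 1 Cre- kidney.

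Podxl was at 8.68, 8.34 and 8.28 in Cre- kidneys and at 7.72, 7.05, 7.92 and 7.94 in Cre+ kidneys at 7 months. The Cre+ kidneys were again all lower, and replicate 2 stood apart as the lowest of all 15 arrays for this gene. Podxl fell by 0.77 (SE 0.19, adjusted p = 0.00712), or 1.71-fold, and without that array by 0.57 with the call kept.

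Wt1 was at 5.86, 5.67 and 5.45 in Cre- and at 4.96, 5.19, 5.31 and 5.31 in Cre+ kidneys at 7 months, with a narrow gap between the groups. It fell by 0.47 (SE 0.15, adjusted p = 0.0306), or 1.38-fold. This call rested on several arrays: it was lost without Cre- replicate 1 (-0.37, adjusted p = 0.139), without Cre- replicate 2 (-0.46, adjusted p = 0.0835), without Cre+ replicate 1 (-0.39, adjusted p = 0.092) and without Cre+ replicate 2 (-0.47, adjusted p = 0.0549).

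Cdkn1c was at 6.09, 5.45 and 5.85 in Cre- and at 5.49, 4.82, 5.20 and 5.43 in Cre+ kidneys at 7 months. The groups overlapped, since Cre- replicate 2 lay below Cre+ replicate 1. The fall was 0.56 (SE 0.17, adjusted p = 0.0223), or 1.48-fold. It too was lost when an array was left out: without Cre- replicate 1 (-0.42, adjusted p = 0.124), without Cre- replicate 3 (-0.54, adjusted p = 0.0647) and without Cre+ replicate 2 (-0.42, adjusted p = 0.0703). With Wt1 and Cdkn1c both lost, the count of podocyte genes that fell was 2 without Cre- replicate 1 and 2 without Cre+ replicate 2.

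Ptpro was at 7.15, 6.79 and 7.10 in Cre- and at 6.73, 6.21, 6.56 and 6.77 in Cre+ kidneys at 7 months. The groups did not overlap, by a margin between 6.77 and 6.79, and the difference of -0.45 (SE 0.16, adjusted p = 0.0584) did not pass. It passed under 8 of the 18 alternatives, among them without Cre- replicate 2 (-0.56, adjusted p = 0.0445) and without Cre+ replicate 4 (-0.52, adjusted p = 0.0478), over a range of adjusted p from 0.0119 to 0.18. With the replicate number as a block it was at -0.50 (adjusted p = 0.0454).

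Plce1 went the other way, at 5.98, 5.53 and 5.78 in Cre- and at 6.66, 6.62, 6.71 and 6.88 in Cre+ kidneys at 7 months. The lowest Cre+ kidney was above the highest Cre- kidney, and the rise was 0.96 (SE 0.15, adjusted p = 0.000198), or 1.94-fold, at the 96.5th percentile of all genes. Of the 18 alternatives, it was called under each that kept more than 1 Cre- kidney.

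Synpo was at 5.19, 4.97 and 5.31 in Cre- and at 5.20, 5.25, 5.53 and 5.35 in Cre+ kidneys at 7 months. Its groups overlapped, and the difference was 0.17 (SE 0.12, adjusted p = 0.362). It was the nearest to zero of the 7 differences at this age.

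**Figure D1:**
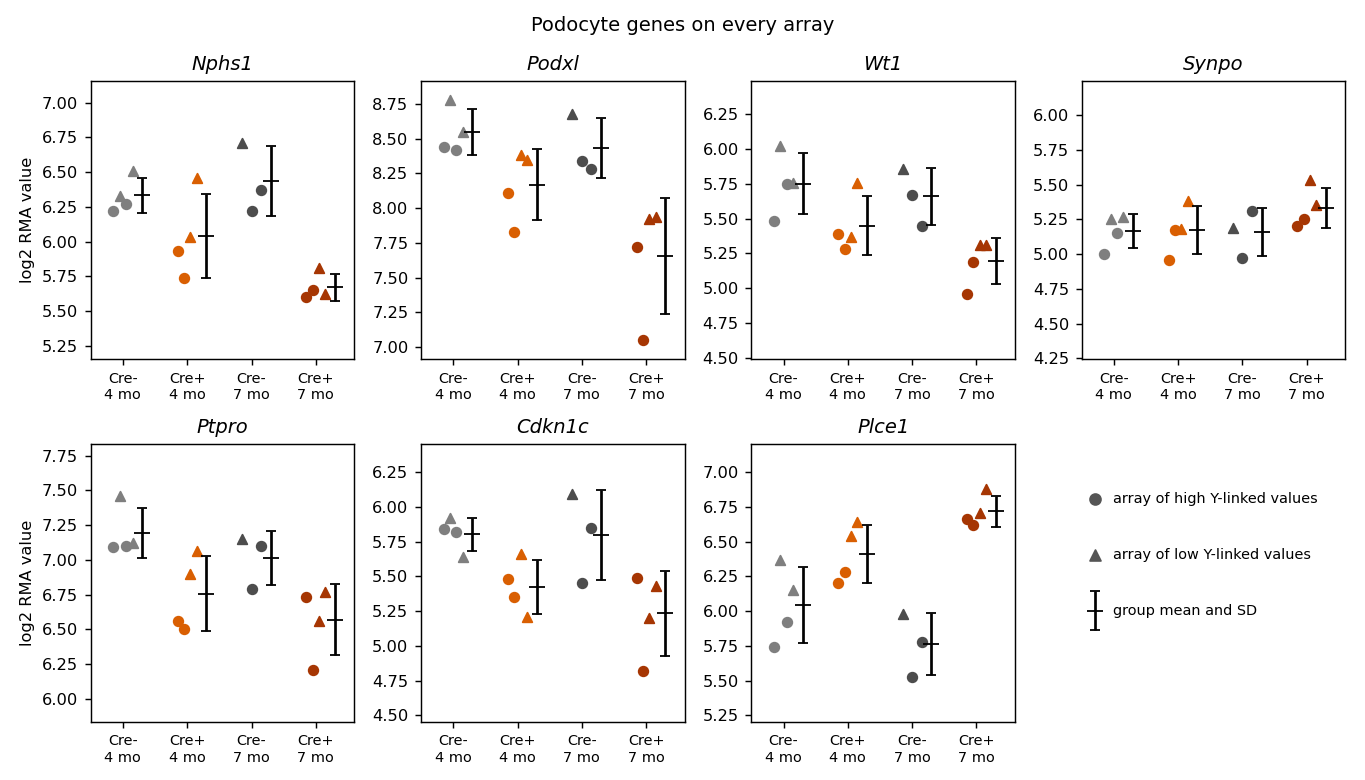
Deposited log2 RMA value (vertical axis) of each measured podocyte gene on every array, by group on the horizontal axis (Cre- or Cre+, 4 or 7 months). Points are mice, circles for arrays of high and triangles for arrays of low Y-linked values, and bars give the group mean and SD. The mean of the 7-month Cre+ kidneys is lowest for Nphs1, Podxl, Wt1, Ptpro and Cdkn1c and highest for Plce1 and Synpo. Their values overlap those of the 4-month Cre+ kidneys for every gene, and for Plce1 all 4 are at 6.62 or above.

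At 4 months, no podocyte gene passed the test in either direction, while 3.53% of all genes did (0.803% lower, 2.73% higher). At an unadjusted p under 0.05 there were 3 lower (Wt1, Ptpro and Cdkn1c) and 1 higher (Plce1), where 16.3% of all genes were under that value in either direction, and the plain linear model without moderation also gave 0 calls. Groups did not overlap for 2 genes, Podxl and Ptpro, a state met by 9.46% of all genes. Both were on the lower side, where 3.16% of all genes were. The median log2 change was -0.30, beside 0.05 over all genes tested.

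Ptpro was at 7.09, 7.46, 7.10 and 7.12 in Cre- and at 6.56, 6.50, 6.90 and 7.06 in Cre+ kidneys at 4 months. Its Cre- values were close except for replicate 2, and all 4 Cre+ values lay below them. The difference was -0.44 (SE 0.15, adjusted p = 0.142), which passed under 1 of 19 alternatives, median centring of each array (-0.52, adjusted p = 0.032).

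Podxl was at 8.44, 8.78, 8.42 and 8.55 in Cre- and at 8.11, 7.83, 8.38 and 8.35 in Cre+ kidneys at 4 months, a difference of -0.38 (SE 0.18, adjusted p = 0.307). Nphs1 was at 6.22, 6.33, 6.27 and 6.51 against 5.93, 5.74, 6.03 and 6.46, a difference of -0.29 (SE 0.14, adjusted p = 0.313). In the Nphs1 values, 3 of the 4 Cre+ kidneys were below all Cre- kidneys and replicate 4 was within them.

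Wt1 was at 5.48, 6.02, 5.75 and 5.76 in Cre- and at 5.39, 5.28, 5.37 and 5.76 in Cre+ kidneys at 4 months (difference -0.30, SE 0.14, adjusted p = 0.283). Cdkn1c was at 5.84, 5.92, 5.82 and 5.64 against 5.48, 5.35, 5.66 and 5.21 (difference -0.38, SE 0.16, adjusted p = 0.235). In both genes 3 of 4 Cre+ kidneys were below every Cre- kidney. Synpo was at 5.0, 5.25, 5.15 and 5.27 against 4.96, 5.17, 5.18 and 5.38, a difference of 0.003 (SE 0.114, adjusted p = 0.994) whose sign turned under 7 of 19 alternatives.

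Plce1 was at 5.74, 6.37, 5.92 and 6.15 in Cre- and at 6.20, 6.28, 6.54 and 6.64 in Cre+ kidneys at 4 months. It was the gene with the highest difference at both ages, here 0.37 (SE 0.14, adjusted p = 0.191), with overlapping groups. With the Y-linked mean added to the model it was at 0.36 and passed (adjusted p = 0.048), under 1 of 19 alternatives.

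**Figure D2:**
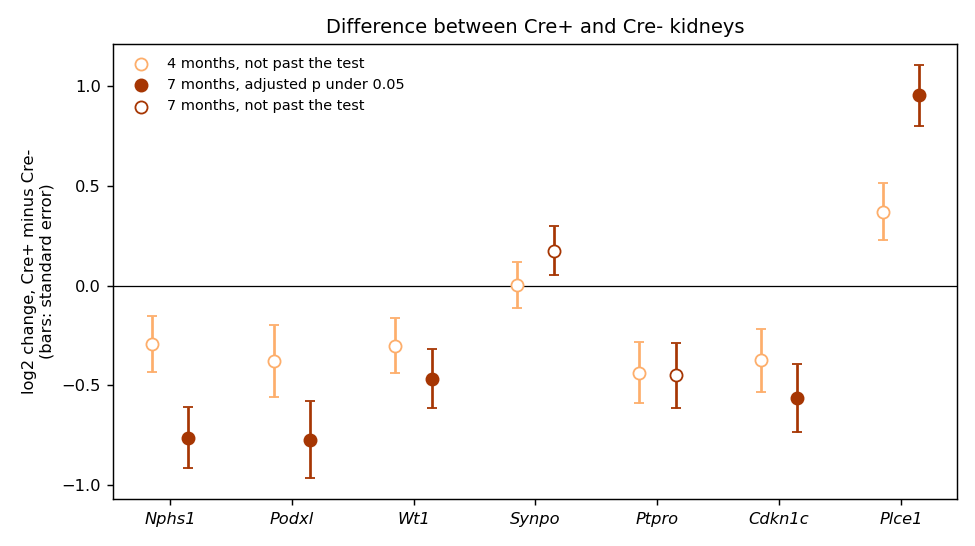
Difference between Cre+ and Cre- kidneys on the log2 scale (vertical axis) for each podocyte gene, at 4 months (pale) and 7 months (dark), with standard errors as bars. Filled symbols passed the test, as 5 genes did at 7 months and none at 4 months, and Plce1 is the only filled symbol above zero.

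The difference between the 7-month and the 4-month Cre comparison was tested as an interaction, in which no podocyte gene passed, and 2.14% of all genes did. The highest was Plce1 at 0.58 (SE 0.21, adjusted p = 0.173) and the lowest Nphs1 at -0.47 (SE 0.21, adjusted p = 0.277), and these 2 were under an unadjusted p of 0.05, as were 15.9% of all genes. Podxl was at -0.40 (SE 0.26, adjusted p = 0.487), and the other 4 genes lay between -0.19 and 0.17. A fall called at 7 months and not at 4 months was therefore not shown to differ between the ages for any of these genes.

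Age alone was compared within each genotype. In Cre- kidneys no podocyte gene passed, with differences of 7 against 4 months between -0.28 for Plce1 and 0.10 for Nphs1. None was under an unadjusted p of 0.05, beside 2.71% of all genes, and over all genes 0.00451% passed. In Cre+ kidneys none passed either, with 10.8% of all genes called, and 3 were under an unadjusted p of 0.05, beside 26.0% of all genes. These were Podxl (-0.51, SE 0.18, adjusted p = 0.0782), Nphs1 (-0.37, SE 0.14, adjusted p = 0.105) and Plce1 (0.30, SE 0.14, adjusted p = 0.187). Podxl passed without Cre+ replicate 2 of 4 months (-0.62, adjusted p = 0.049), the lowest 4-month Cre+ array for that gene.

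Ordered by group mean, Nphs1 ran from 6.43 ± 0.25 (SD, n = 3) in Cre- at 7 months and 6.33 ± 0.13 (n = 4) in Cre- at 4 months to 6.04 ± 0.30 (n = 4) in Cre+ at 4 months and 5.67 ± 0.10 (n = 4) in Cre+ at 7 months. No step between neighbours in this order passed, and the Cre comparison at 7 months, which spans it, did. Podxl (8.55 ± 0.17 in Cre- at 4 months to 7.66 ± 0.42 in Cre+ at 7 months) and Wt1 (5.75 ± 0.22 to 5.19 ± 0.17) had the same 2 Cre+ groups at the low end. Plce1 ran in the opposite order, from 6.72 ± 0.11 in Cre+ at 7 months and 6.41 ± 0.21 in Cre+ at 4 months to 6.04 ± 0.27 in Cre- at 4 months and 5.76 ± 0.23 in Cre- at 7 months. Synpo means lay between 5.16 and 5.33 in the 4 groups.

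The arrays fell into 2 kinds by Y-linked genes, and podocyte genes were compared between the kinds. The labels give no sex. In 8 arrays the mean of the 3 measured Y-linked genes was 6.92 or above with Xist at 3.35 to 3.93, and in 7 arrays it was 2.64 to 2.98 with Xist at 10.14 or above. Each group held 2 of each kind, except for 2 high and 1 low among the Cre- kidneys at 7 months. The comparison that follows was chosen after the data were seen.

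In arrays of high Y-linked values all 7 podocyte genes were lower, and the means were lower in 27 of 28 combinations of gene and group. The exception was Cdkn1c in Cre- kidneys at 4 months, with means of 5.83 in high and 5.78 in low arrays. The genes share the arrays, and the share of all genes that were lower in high arrays was not computed. Array medians over all genes were also lower in high arrays, except in Cre- kidneys at 7 months (4.90 and 5.01 against 4.95). With group means in the fit, 2 genes passed, Podxl at -0.39 (SE 0.09, adjusted p = 0.0285) and Plce1 at -0.32 (SE 0.07, adjusted p = 0.0227), where 3.40% of all genes were called. The other 5 were between -0.27 for Ptpro (adjusted p = 0.148) and -0.12 for Cdkn1c (adjusted p = 0.722). Plce1, which rose in Cre+ kidneys, and the genes that fell were thus on the same side in this comparison.

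**Figure D3:**
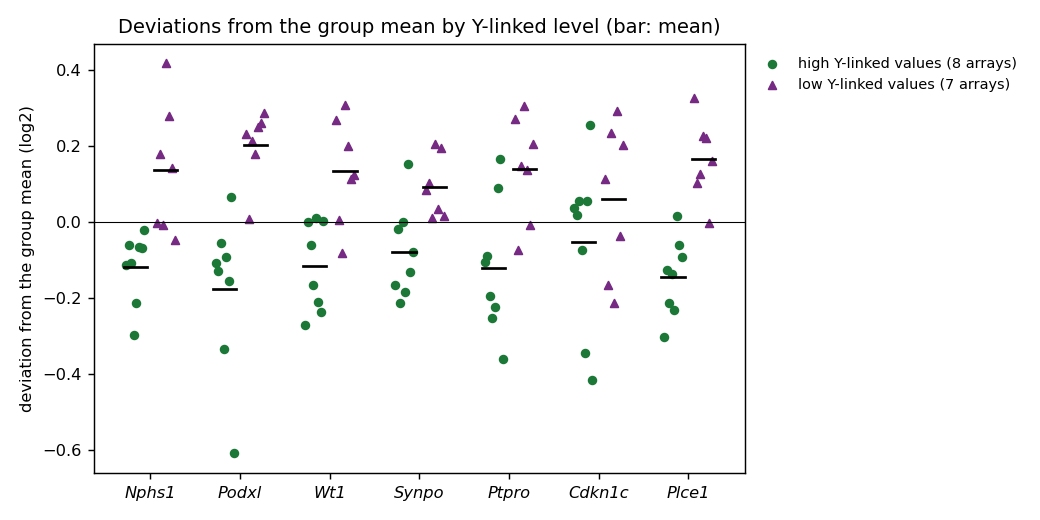
Deviation of each array from its group mean on the log2 scale (vertical axis) for the 7 podocyte genes, split into the 8 arrays of high (circles) and 7 of low (triangles) Y-linked values, with bars at the mean. The low arrays lie above the high arrays on average for every gene, least for Cdkn1c.

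The Cre comparison at 7 months was repeated within each kind of array, in fits that took the spread from arrays of both ages. In the 4 arrays of high Y-linked values Nphs1 was at -0.67, Podxl at -0.92 and Plce1 at 0.99, and these 3 passed. Wt1 was at -0.48 and Cdkn1c at -0.50 there and did not pass (adjusted p = 0.0764 and 0.157). The 3 arrays of low values held 1 Cre- kidney, so their values are given with no test: Nphs1 was at -0.99, Podxl at -0.75, Plce1 at 0.81, Wt1 at -0.55 and Cdkn1c at -0.77.

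Deviations of the podocyte genes from their group means were compared over the 15 arrays, as a description. Of 21 pairs of genes, 20 had a Pearson r above zero, with a median of 0.55 and a range from -0.10 (Wt1 and Cdkn1c) to 0.82 (Podxl and Ptpro). When the kind of array by Y-linked values was removed as well, 13 of 21 were above zero, with a median of 0.13. The pairs that stayed high were Podxl with Cdkn1c (0.68), Podxl with Ptpro (0.64), Ptpro with Cdkn1c (0.59) and Ptpro with Plce1 (0.57). For Podxl, Ptpro and Cdkn1c the same array, Cre+ replicate 2 at 7 months, lay furthest below its group mean (-0.61, -0.36 and -0.42).

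Against the mean of the other members, with group means alone removed, Ptpro (r = 0.86), Plce1 (0.85) and Podxl (0.80) followed most closely and Cdkn1c (0.36) least. Of all other genes, 0.785% reached the value of Ptpro and 29.9% that of Cdkn1c. The points share the arrays and their normalization. Genes outside the list whose deviations were most like the mean of the 7 were Vav3, Iqgap2 and Yeats4 (r = 0.95 each), Efcab14, Abhd6, Dpp4, Jak2, BC064078 and Sfxn2 (0.94 each) and Rad50 (0.93). Of these 10, 2 passed in the Cre comparison at 7 months, a share near the 22.5% of all genes: Sfxn2, a mitochondrial transporter (-0.96, adjusted p = 0.000379), and Rad50, a DNA repair protein (0.44, adjusted p = 0.0419).

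Other genes of the podocyte were read from 5 lists, to be set beside the 22.5% of all genes called at 7 months. The samples were whole kidney, so a change of a gene in these lists cannot be assigned to podocytes. Among partners of the slit diaphragm, 7 of 16 measured rose at 7 months and none fell, and the median log2 change was 0.35. At an unadjusted p under 0.05 there were 10 higher and 0 lower, beside 32.9% of all genes in either direction. Such counts for the lists below were 2 higher and 4 lower in the foot process cytoskeleton and 1 and 3 among transcription factors. They were 8 and 2 for basement membrane and adhesion, and 2 and 5 for receptors and secreted factors. Fat1, a giant cadherin of the slit, rose by 1.29 (SE 0.14, adjusted p = 3.24e-06) and Iqgap1, an actin scaffold, by 0.97 (SE 0.12, adjusted p = 1.92e-05). These 2 had passed at 4 months too, at 0.58 and 0.47 (adjusted p = 0.0137 and 0.0289). Fat1 lost that earlier call when Cre+ replicate 2, 3 or 4 was left out (0.44 to 0.73 over 19 alternatives, adjusted p up to 0.285). Iqgap1 lost it without any of those or Cre- replicate 1 or 3 (0.38 to 0.52, adjusted p up to 0.142).

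Kirrel, which encodes the nephrin partner NEPH1, rose by 0.43 (SE 0.13, adjusted p = 0.0211), in the opposite direction to Nphs1. The kinase Fyn, which phosphorylates nephrin, rose by 0.56, the adaptors Nck1 and Nck2 that bind it then by 0.50 and 0.54, and Tjp1, which encodes the junction protein ZO-1, by 0.40 (adjusted p = 0.00481, 0.0167, 0.0162 and 0.0422). Cd2ap, an adaptor between nephrin and actin, was at 0.23 (SE 0.12, adjusted p = 0.191). Kirrel lost its call without Cre- replicate 2 or Cre+ replicate 3 (0.31 to 0.53 over 18 alternatives, adjusted p up to 0.294), and Nck1 without Cre- replicate 1 or 2 or Cre+ replicate 1 (0.39 to 0.65, up to 0.133). Tjp1 was called under 8 of the 18 alternatives, and was lost without any of Cre- replicates 1 and 2 and Cre+ replicates 1, 3 and 4 (0.31 to 0.53, up to 0.351). The count of partners that rose was 4 without Cre- replicate 2 at 7 months, and 3 within the arrays with high Y-linked values. It was 7 after median centring and 10 after quantile normalization.

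In the foot process cytoskeleton, 2 of 12 genes rose and 1 fell at 7 months, a share near that of all genes, with a median of -0.17. Anln, an actin-binding protein also needed for cell division, rose by 1.30 (SE 0.17, adjusted p = 2.3e-05) and the myosin Myo1e by 1.04 (SE 0.13, adjusted p = 1.66e-05). Both had also passed at 4 months (0.91 and 0.58, adjusted p = 0.00217 and 0.0102). Rhpn1 fell by 0.46 (SE 0.14, adjusted p = 0.0189). That fall was lost without Cre+ replicate 4 and without Cre- replicate 1 (-0.82 to -0.24 over 18 alternatives, adjusted p up to 0.425). The count that fell was 4 after median centring and 2 after quantile normalization.

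Of 6 transcription factors of podocytes, 1 passed at 7 months: Foxc1, a forkhead factor, rose by 1.38 (SE 0.21, adjusted p = 9.9e-05), after 0.96 at 4 months (adjusted p = 0.00718). Lmx1b was at -0.16 (SE 0.14, adjusted p = 0.463) and Tcf21 at -0.43 (SE 0.20, adjusted p = 0.14), and the median of the list was -0.22. After median centring 3 of the 6 fell, and after quantile normalization 2 did.

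Of 11 genes of the glomerular basement membrane and its adhesion receptors, 6 rose and 2 fell at 7 months, with a median of 0.46. Those that fell encode type IV collagen chains of the mature glomerular membrane, Col4a3 by 0.70 (SE 0.10, adjusted p = 8.02e-05) and Col4a4 by 0.49 (SE 0.13, adjusted p = 0.0123). Col4a5, another chain of that membrane, did not pass, with group means of 5.45 in Cre- and 5.23 in Cre+ kidneys. Col4a3 was called under each alternative that kept more than 1 Cre- kidney. Col4a4 was lost without Cre- replicate 2 and without Cre- replicate 3 (-0.61 to -0.32). The laminin chains Lama5 and Lamb2 rose by 0.54 and 0.58, the proteoglycan Agrn by 0.97, and the adhesion genes Cd151, Dag1 and Itgb1 by 0.63, 0.42 and 0.46 (highest adjusted p = 0.0261, for Dag1). Dag1 was called under 11 of 18 alternatives, and was lost without any of Cre- replicates 1 and 2 and Cre+ replicates 1, 3 and 4 (0.33 to 0.57, adjusted p up to 0.158). These matrix and adhesion genes are also made by tubules and vessels. None of the 11 passed at 4 months, with 2 higher and 1 lower at an unadjusted p under 0.05.

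Among 8 podocyte receptors and secreted factors, 2 rose and 3 fell at 7 months, with a median of -0.40. The heparan sulfatase Sulf1 rose by 0.97 (adjusted p = 0.000354) and Thsd7a, a foot process membrane protein, by 0.82 (adjusted p = 0.000562). Vegfa, the growth factor podocytes send to glomerular endothelium, fell by 0.38 (SE 0.10, adjusted p = 0.00707), Npr3, a natriuretic peptide receptor, by 0.49 (adjusted p = 0.0119) and Bmp7 by 0.47 (adjusted p = 0.00436). Npr3 lost its call without Cre- replicate 1 and without Cre- replicate 2 (-0.58 to -0.37). In the arrays with high and in those with low Y-linked values taken alone, none of these 3 passed, on 4 and 3 arrays. Their differences there were -0.42 and -0.36 for Vegfa, -0.55 and -0.49 for Npr3, and -0.49 and -0.41 for Bmp7. The count that fell was 5 after median centring and after quantile normalization.

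Markers of the other cells of the kidney moved at the same age, and their part in the podocyte results was not tested. Their counts stand beside 10.8% of all genes called lower and 11.7% called higher at 7 months. Of 13 endothelial markers, 5 fell and none rose at 7 months (median -0.34), with Ehd3, a gene of glomerular endothelium, at -1.41 and Lpl at -1.30. The general endothelial markers Pecam1, Cdh5 and Tie1 were at 0.26, 0.28 and 0.17 and did not pass (adjusted p = 0.157, 0.227 and 0.401). The mean level of all 13 endothelial markers was 6.70 to 7.12 in Cre+ and 7.29 to 7.41 in Cre- kidneys. Of 8 mesangial markers, 2 fell, Agtr1a by 1.25 and Itga8 by 0.76, while the median was 0.15 and 3 of 8 were below zero, with mean levels of 6.41 to 6.74 against 6.59 to 6.82.

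All 14 proximal tubule markers fell at 7 months (median -1.23), with a mean level of 9.75 to 10.27 in Cre+ against 11.27 to 11.32 in Cre- kidneys, and 4 of 8 thick ascending limb markers did (8.63 to 8.78 against 9.30 to 9.61). Of 7 collecting duct principal cell markers 1 rose, at levels of 7.69 to 8.03 against 7.77 to 7.98. All 12 macrophage markers rose (median 1.56, levels 7.32 to 7.70 against 5.79 to 6.19), as did 7 of 9 fibroblast and matrix genes (7.85 to 8.04 against 6.34 to 6.88) and 7 of 8 lymphocyte markers (5.01 to 5.75 against 4.11 to 4.29).

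Of 7 parietal epithelial markers 5 rose, led by Cd44 at 2.88 and Cldn1 at 1.83, with mean levels of 7.04 to 7.53 in Cre+ and 5.95 to 6.22 in Cre- kidneys. In whole kidney this rise cannot be assigned to parietal cells. Of 5 markers of mesothelium, which also makes Wt1, Upk1b rose by 1.29 and Gpm6a fell by 0.67, at mean levels of 5.62 to 5.84 and 5.51 to 5.90. At 4 months the called markers were fewer: 3 proximal tubule and 3 thick ascending limb markers were lower, and 4 macrophage, 4 fibroblast, 2 parietal, 1 lymphocyte and 1 principal cell marker were higher. Over all genes 0.803% were called lower and 2.73% higher at that age. No endothelial or mesangial marker passed at 4 months. At an unadjusted p under 0.05, 1 of each was lower, beside 16.3% of all genes in either direction. The mean level of all 7 podocyte genes was 5.83 to 6.19 in Cre+ and 6.14 to 6.52 in Cre- kidneys at 7 months, ranges that overlap. This mean joins genes with differences of both signs. Without Plce1 and Synpo, left out for the sign of their differences, it was 5.78 to 6.22 against 6.49 to 6.90. Because the sign in this same comparison chose the genes, the gap between these ranges is no further evidence of a fall.

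**Figure D4:**
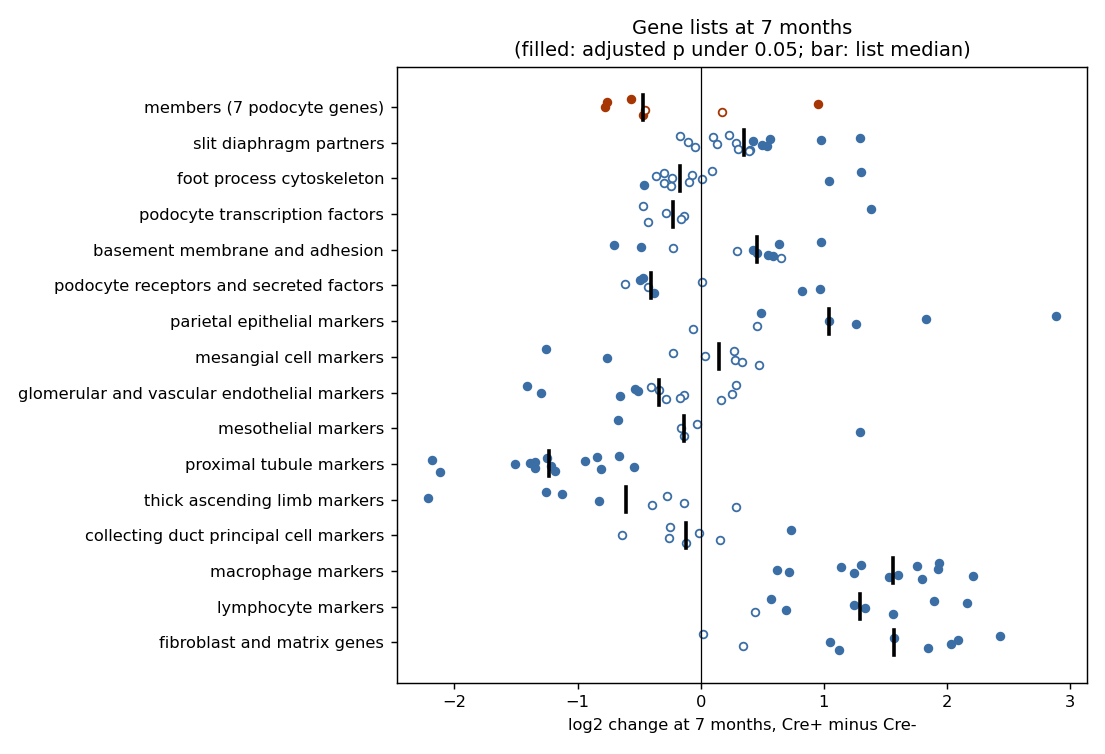
Log2 change at 7 months, Cre+ minus Cre- (horizontal axis), of each measured gene in the podocyte set and the other lists (rows). Points are genes, filled where the adjusted p was under 0.05, and bars are list medians, which run from -1.23 for proximal tubule markers to 1.57 for fibroblast and matrix genes.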

How the data were processed

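Total RNA of whole kidneys was hybridised to Affymetrix Mouse Gene 2.0 ST arrays, from 100 ng of total RNA with an integrity number over 7, per the labels. The deposited values are log2 values made with RMA in Partek 6.6, per the submitters' processing notes, and were used as deposited. The genome build of that annotation was not named in the sources used here. Of 41345 entries, 23521 were paired with 1 symbol, 1814 with several and 16010 with none in the annotation used. Symbols were updated by Entrez identifier through RefSeq's GRCm38.p6 gene table, where 23328 matched and 193 kept the platform's symbol. For 1082 genes with several entries the one of highest mean was used, which left 22180 genes.

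A model of 4 group means over 15 arrays was fitted with limma 3.58.1 (lmFit, eBayes) in R 4.3.3, with 5 contrasts, two-sided tests and Benjamini-Hochberg adjustment over all 22180 genes at 0.05. Replicates are separate mice, per the labels' design text. The procedure was tested on simulated data. Each podocyte gene is named whatever its values. Of the other podocyte lists, every gene called at either age and a few preset genes are named, with up to 2 called genes per marker list and the 10 genes of likeliest deviations. The genes and lists were chosen with earlier results of these data known. Kirrel1 and Nherf2 were listed beside Kirrel and Slc9a3r2, of which they are other names.

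Alternatives were a filter on dim genes (over the median of named entries in 3 or more arrays), quantile scaling, median centring, trend with robust moderation, no moderation (the submitters name an analysis of variance), the 2 groups of a comparison only, the replicate number as a block, a Y-linked covariate, averaged entries per gene and each array left out. Fits within arrays of high or low Y-linked values were added after seeing the data. No clear pairing of mice by replicate number was seen: deviations of same-numbered arrays correlated between -0.47 and 0.30, above 0.1 in 11 of 21 pairs. These correlations cannot exclude a pairing. Tables and plots were made with Python 3.11.15, pandas 2.3.3, numpy 2.4.6 and matplotlib 3.10.9.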

Additional observations from a re-analysis of the deposited data

Results flagged for a closer look

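In 21 combinations of a podocyte gene and a group of 4 arrays, 1 array stood apart: Ptpro in replicate 2 of the Cre- kidneys at 4 months was at 7.46, while the other 3 were at 7.09, 7.10 and 7.12. The gap to the next value was 0.919 of the range of the group, above Dixon's critical value for 4 samples, which chance passes in about 1 of 20 groups. This array was of low Y-linked values.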

How the results depend on the processing

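At 7 months Nphs1, Podxl and Plce1 kept direction under all 18 alternatives, and their call under each that kept more than 1 Cre- kidney. Averaged entries could not change their values, as each was measured by 1 entry. The count of podocyte genes that fell, 4, was 2 in the plain linear model and within the high Y-linked arrays, and 2 to 5 with an array left out. The low Y-linked arrays held 1 Cre- kidney, assumed to vary like the other groups, so no count is given for them. Wt1 and Cdkn1c had adjusted p = 0.0532 and 0.0505 in the plain linear model, and Cdkn1c 0.0613 in the fit of 2 groups. At 4 months 1 gene was lower after median centring and 1 higher with the Y-linked covariate. Of 7 against 4 months in Cre+ kidneys, 2 were lower and 1 higher with that covariate, and 0 to 1 were lower with an array left out.

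Signs turned for 7 differences, none of them past the test under any alternative. Synpo at 4 months was at -0.083 (quantile), -0.085 (centring), -0.001 (Y-linked covariate) and -0.011 (high arrays), and from -0.065 to 0.075 with an array left out. Ptpro in the interaction was at 0.001 (centring) and 0.083 (high arrays), and from -0.125 to 0.107 with an array left out. In Cre- kidneys by age, Synpo was at 0.026 (replicate block), 0.020 (covariate) and 0.067 (high arrays), and from -0.086 to 0.082 with an array left out. Cdkn1c was at 0.018 (quantile), 0.002 (centring), 0.013 (covariate) and 0.312 (low arrays), and from -0.151 to 0.167. Podxl was at 0.014 in the low arrays. Nphs1 ran from -0.040 to 0.206 and Wt1 from -0.193 to 0.013 with an array left out. The cause was not tested.

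Over all genes, calls at 4 months (606 higher, 178 lower) were 497 and 511 after median centring (77.3% to 49.3% higher), 407 and 119 in the plain linear model and 778 and 326 with the covariate. At 7 months (2597 and 2394) they were 2337 and 3609 after centring (52% to 39.3% higher). The replicate block gave 614 and 181 at 4 months and 2398 and 2329 at 7 months, and 5 of 15 arrays correlated best with their own number. It changed no podocyte call but that of Ptpro. The fit of 2 groups cannot give the interaction. With 3 or 4 mice a group, small differences may be missed.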
